A study of Mus musculus with 4 samples.

Results

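The genes described here are 5 Sox genes that work in young neurons: the SoxC genes Sox4, Sox11 and Sox12 and the SoxD genes Sox5 and Sox13. They were taken by gene name from a table of 22770 genes, and all 5 passed the filter on low values. RNA was taken from the cortex of mouse embryos at embryonic day 16.5, in 2 libraries from wild-type littermates and 2 from embryos homozygous for the small eye allele of Pax6 (Pax6 sey/sey), all on a mixed background of C57BL/6J, 129S6 and CD1. The allele is carried in every cell of the embryo, and the labels do not say whether each library is 1 embryo, so the spread between libraries may be partly technical. The comparison is that of cortex with and without working Pax6, a transcription factor of cortical progenitors. Values are FPKM: fragments scaled both by the length of a gene's exons and by the size of its library. Pax6 itself was 28.8 and 27.0 FPKM in wild type and 101 and 120 FPKM in the mutant libraries, and since this allele is a point mutation and the RNA is still made, its level does not check the labels.

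Sox proteins bind DNA through an HMG box, a domain that bends the double helix, and are sorted into groups by the similarity of that box. SoxC proteins carry an activation domain at their end and switch on neuronal genes as progenitors leave the cell cycle, often together with POU or proneural factors bound nearby. SoxD proteins have no activation domain of their own. They pair through a coiled coil and act with other factors, often to repress. In cortex Sox5 times the production of deep-layer neurons that project out of the cortex, and SoxC proteins and Sox5 have been reported to act in opposite directions on an enhancer of Fezf2, the gene that specifies corticospinal neurons. The third SoxD gene, Sox6, works in interneurons and in pallial progenitors and is no member of the set.

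The SoxC genes share a simple structure. In GENCODE M21 on GRCm38, Sox4 (ENSMUSG00000076431, chromosome 13, 28948919 to 28953713), Sox11 (ENSMUSG00000063632, chromosome 12, 27334264 to 27342574) and Sox12 (ENSMUSG00000051817, chromosome 2, 152393611 to 152398063) each have 1 block of exon sequence, of 4795, 8311 and 4453 bases. The SoxD genes are split. Sox5 (ENSMUSG00000041540, chromosome 6, 143828425 to 144781977) has 25 merged exon blocks over 953553 bases, and Sox13 (ENSMUSG00000070643, chromosome 1, 133382303 to 133424377) has 14 blocks over 42075 bases. All 5 lie on the minus strand. Sox4 overlaps the long noncoding gene Gm26735 and Sox5 shares exon bases with the antisense gene Sox5os1. Strand use in counting is not stated, but the highest value of any gene sharing the table's locus with Sox4 was 0.0475 FPKM, and with Sox5 0.179 FPKM, against at least 111 FPKM for Sox4 and Sox5 themselves.

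The sequences just upstream of the 3 SoxC genes are shown because these genes are the intronless, strongly expressed members whose level the results below follow. They run from 250 to 21 bases before the RefSeq start (build GRCm38.p6), 5′ to 3′ on the gene's strand, with each CCAAT match on either strand (CCAAT or its reverse complement ATTGG) in capitals.
Sox4 (chr13:28953720-28953949, minus strand): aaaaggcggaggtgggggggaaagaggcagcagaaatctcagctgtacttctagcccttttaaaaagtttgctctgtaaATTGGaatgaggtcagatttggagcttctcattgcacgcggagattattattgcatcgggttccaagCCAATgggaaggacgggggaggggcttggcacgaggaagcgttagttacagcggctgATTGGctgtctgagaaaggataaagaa
Sox11 (chr12:27342739-27342968, minus strand): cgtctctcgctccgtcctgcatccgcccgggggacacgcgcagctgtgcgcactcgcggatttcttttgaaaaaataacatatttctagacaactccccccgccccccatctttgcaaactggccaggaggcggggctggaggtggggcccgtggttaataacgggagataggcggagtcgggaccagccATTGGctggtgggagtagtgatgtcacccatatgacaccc
Sox12 (chr2:152398067-152398296, minus strand): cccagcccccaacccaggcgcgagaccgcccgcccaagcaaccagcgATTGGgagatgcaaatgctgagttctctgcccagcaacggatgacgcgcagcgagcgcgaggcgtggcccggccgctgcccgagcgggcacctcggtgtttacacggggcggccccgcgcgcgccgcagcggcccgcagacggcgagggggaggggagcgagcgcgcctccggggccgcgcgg
Sox4 had 3 CCAAT matches in this window and Sox11 and Sox12 had 1 each, while the windows listed for Sox5 and Sox13 had 0. Of 32851 promoter windows of the same length, 32.2% held at least 1 match. ACAAT, part of the sequence that Sox proteins bind, was found 0 times in the windows of the SoxC genes and 1 time in that of Sox5, against 26.4% of all windows. The GC content was 49.1% for Sox4, 59.6% for Sox11 and 76.1% for Sox12, with a median of 51.7% over all windows. The window listed for Sox5 belongs to an internal start of that long gene. These matches describe letters only.

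None of the 5 genes passed the test between genotypes, although Sox4 was slightly higher and Sox5 slightly lower in both mutants. The test was limma on log2(FPKM + 0.5) over 15399 genes, with Benjamini-Hochberg adjustment and a threshold of 0.05. It called 0 of the 5, against 3.48% of all tested genes (536 genes): 0 members rose, against 2.02% of all genes, and 0 fell, against 1.46%. At an unadjusted p under 0.05 it picked 1 of the 5, Sox4, against 19.5% of all genes. The median of the 5 log2 fold changes, mutant minus wild type, was 0.07, and that of all tested genes was 0.0006. In size, regardless of sign, the members' median was 0.15 and that of all genes 0.17. Both mutants lay on 1 side of both wild types for 2 of the 5, against 51.6% of all tested genes, a share near the background. With 2 libraries against 2 the exact two-sided permutation test over libraries cannot go below p = 0.333, which is what it gave for Sox4 and Sox5. In whole tissue, fewer cells of a type and less RNA per cell cannot be told apart.

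**Figure D1:**
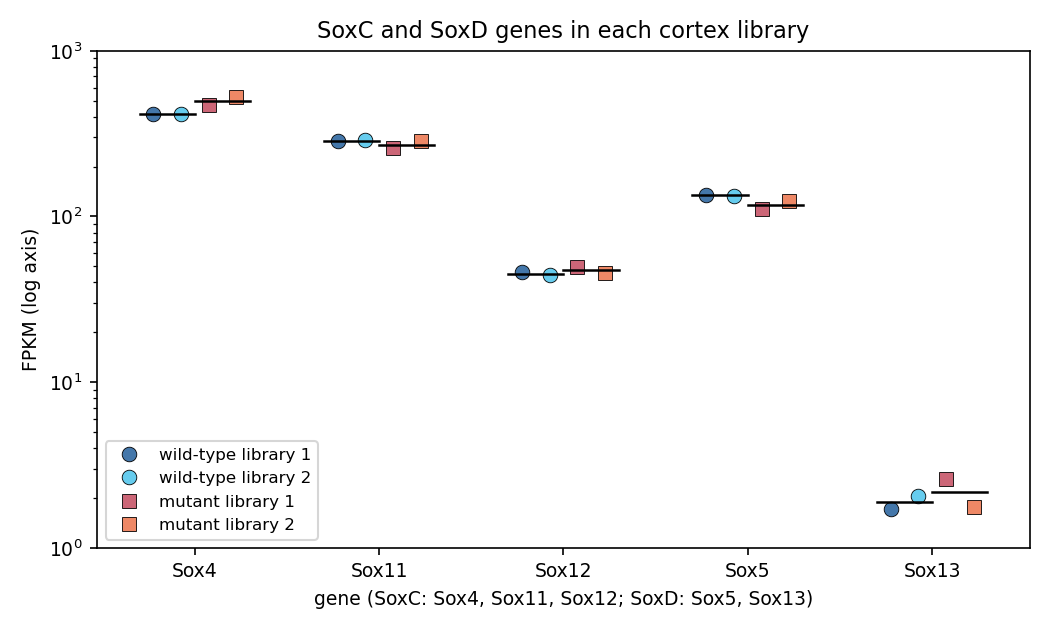
FPKM on a log axis of the 5 Sox genes in each library, where circles are wild type, squares are mutant and black lines are means of 2 libraries. Sox4 lies at 417 to 418 FPKM in wild type and 473 to 523 in the mutants, and Sox13 between 1.72 and 2.62 in all 4 libraries.

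Sox4 was the most abundant member and one of the highest genes of the tissue. It measured 418 and 417 FPKM in wild type and 473 and 523 FPKM in the mutants, which placed it at rank 131 to 157 of the 15399 tested genes in the 4 libraries. Both mutants were above both wild types. The means were 417 ± 0.841 and 498 ± 35.8 FPKM (SD, n = 2), so the log2 fold change was 0.25 (SE 0.07, limma adjusted p = 0.134), or 1.19-fold with a 95% confidence interval from 1.06 to 1.34. The interval lies above 1 before adjustment for the number of genes, and the difference did not pass after it. The authors' deposited table gives a ratio of 1.19 and a p-value of 0.00446 for Sox4, the only member under 0.05 there, against 2.58% of the tested genes. The test behind that p-value is not stated.

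The wild-type values of Sox4 were closer to each other than is usual at that level. They differed by 0.004 on the log2 scale, where the median for 142 genes within 1.5-fold of its mean level was 0.07. The mutants differed by 0.15, above the median of 0.10 for the same genes. Without mutant library 1 the log2 fold change was 0.33, and without mutant library 2 it was 0.18. The size of the difference therefore depended on which mutant was kept. Its sign could not turn, since both mutants lay above both wild types. Relative to the summed FPKM of 14 pan-neuronal genes the log2 fold change of Sox4 was 0.37 (adjusted p = 0.0936), and relative to that of 9 progenitor genes it was 0.21 (adjusted p = 0.726). Both sums lean on a few genes. In wild type Fabp7 gave 719 and 540 FPKM of a progenitor sum of 975 and 826 FPKM. Tubb3 gave 860 and 852 FPKM of a pan-neuronal sum of 3280 and 3140 FPKM, and Tubb3, Map2 and Dcx are also reported SoxC targets. Values relative to these sums are therefore not levels per neuron or per progenitor.

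Sox11, which acts together with Sox4 and overlaps with it in function, did not differ in level beyond the spread. It measured 284 and 291 FPKM in wild type and 257 and 285 FPKM in the mutants. Mutant library 2 lay between the wild types and mutant library 1 below them, so the groups overlapped. The log2 fold change was -0.09 (SE 0.07, limma adjusted p = 0.552), with a 95% confidence interval for the fold from 0.836 to 1.06. It ranked 234 to 266 among the tested genes.

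Sox12, the third SoxC gene, whose product activates transcription more weakly in reporter assays, was the lowest of the group. It measured 45.9 and 44.5 FPKM in wild type and 49.3 and 45.5 FPKM in the mutants. Mutant library 2 again lay between the wild types. The log2 fold change was 0.07 (SE 0.07, limma adjusted p = 0.678), with an interval for the fold from 0.921 to 1.19. Between libraries of 1 genotype Sox12 moved the other way from Sox4 and Sox11: mutant library 2 was lower than mutant library 1 by 0.11 for Sox12 and higher by 0.15 and 0.14 for Sox4 and Sox11, on the log2 scale.

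Sox5 was the main SoxD gene of the tissue. It measured 134 FPKM in each wild-type library and 111 and 125 FPKM in the mutants, both below the wild types. The log2 fold change was -0.19 (SE 0.07, limma adjusted p = 0.26), or 0.878-fold with an interval from 0.771 to 1.001. Its unadjusted p was 0.0513. Without mutant library 1 the log2 fold change was -0.10 and without mutant library 2 it was -0.27, so here too the size depended on which mutant was kept. The summed FPKM of 14 pan-neuronal genes moved the same way, from 3280 and 3140 in the wild types to 3000 and 2910 in the mutants, and relative to that sum the log2 fold change of Sox5 was -0.07 (adjusted p = 0.707). Relative to the summed FPKM of 9 progenitor genes it was -0.23 (adjusted p = 0.681).

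Sox13, known mainly from work outside the cortex, was by far the lowest member. It measured 1.72 and 2.06 FPKM in wild type and 2.62 and 1.75 FPKM in the mutants, at rank 11782 to 12611 of the 15399 tested genes. The groups overlapped, and the spread between the mutants was larger than the difference between genotypes. The log2 fold change was 0.15 (SE 0.25, limma adjusted p = 0.783), with an interval for the fold from 0.72 to 1.72 that is far wider than for the other members. Without mutant library 1 its sign turned (log2 fold change -0.08). That library, with the highest Sox13, also had the highest summed FPKM of 6 meningeal genes (28.1) and of 6 endothelial genes (59.6). The other libraries did not follow that order. Wild-type library 2, next in Sox13 at 2.06 FPKM, had the lowest sums, 3.26 and 39.6. Mutant library 2, at 1.75 FPKM of Sox13, had sums of 6.74 and 47.7. Neither list had a called member, and their part in the Sox13 value was not tested.

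The order of levels per length of exon was Sox4, Sox11, Sox5, Sox12 and Sox13 in all 4 libraries. No neighbours in that order overlapped. The nearest pair, Sox4 and Sox11, stood at a ratio of 1.43 to 1.84, and the widest gap was that between Sox12 and Sox13, at 18.8 to 26.8. The 3 SoxC genes summed to 747 and 752 FPKM in wild type and 779 and 853 FPKM in the mutants, a difference of 1.09-fold. The 2 SoxD members summed to 136 FPKM in each wild type and to 114 and 127 FPKM in the mutants.

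Ratios within a library do not depend on how libraries were scaled. Of the 10 ratios between members, 5 did not overlap between genotypes: each of the 3 SoxC genes over Sox5, and Sox4 over Sox11 and over Sox12. Of single tested genes, 51.6% had groups that do not overlap, but no such share was computed over ratios. The 10 ratios come from only 5 genes and are not independent. The count itself is therefore no result about the members, and the values below are a description. The ratio of Sox4 to Sox11 was 1.47 and 1.43 in wild type and 1.84 in both mutants, a shift of 0.34 on the log2 scale. The ratio of Sox4 to Sox5 was 3.11 and 3.12 in wild type and 4.26 and 4.19 in the mutants, a shift of 0.44. For both ratios the gap between mutants was far smaller than for either gene alone, since Sox4, Sox11 and Sox5 were all higher in mutant library 2 by a like amount. The exact permutation test over libraries gave p = 0.333 for each of the 5, the smallest it allows, and 5 ratios overlapped.

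**Figure D2:**
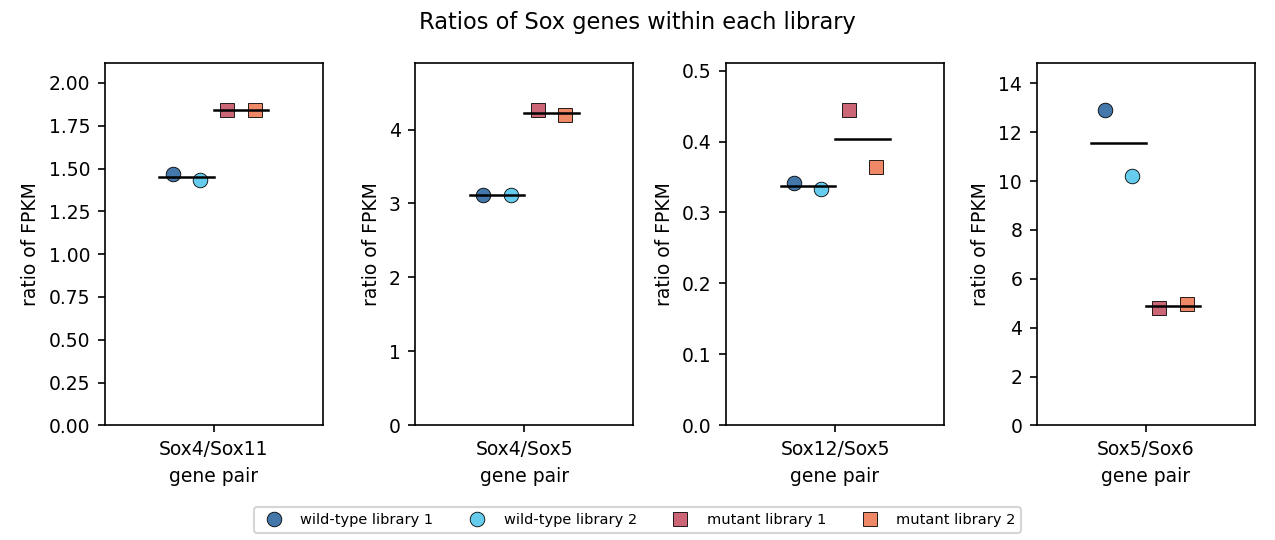
Ratio of FPKM for 4 gene pairs in each library, on linear axes from 0, where circles are wild type, squares are mutant and black lines are means of 2 libraries. Sox4 over Sox11 lies at 1.43 to 1.47 for wild type and at 1.84 for both mutants, and Sox5 over Sox6 at 10.2 to 12.9 for wild type and 4.79 to 4.99 for mutants.

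As a share of the summed FPKM of the SoxC genes, Sox4 made up 55.9% and 55.4% in wild type and 60.6% and 61.3% in the mutants. Sox11 made up 38.0% and 38.7% in wild type and 33.0% and 33.3% in the mutants. The Sox12 share lay between 5.33% and 6.32% in all libraries, with no separation of genotypes. SoxC RNA was thus made up of a little more Sox4 and a little less Sox11 in the mutant libraries, in a comparison whose smallest possible permutation p is 0.333.

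Among Sox genes outside the set, Sox1, Sox2, Sox9 and Sox6 rose. Of 14 other Sox genes listed, 13 were in the table and 11 were tested, of which 4 rose (2.02% of all genes did) and 0 fell, with a median log2 fold change of 0.52. Sox1 and Sox2, SoxB1 genes that keep neural progenitors undifferentiated, went from 13.5 and 11.4 FPKM to 45.7 and 49.0 FPKM and from 25.8 and 22.9 FPKM to 78.5 and 93.1 FPKM. Their log2 fold changes were 1.89 and 1.79 (limma adjusted p = 0.00582 and 0.00746). Sox9, a SoxE gene of progenitors and glia, rose by 0.78 on the log2 scale (adjusted p = 0.0482, just under the threshold). Sox3, the third SoxB1 gene, was at 4.90 and 6.26 FPKM in wild type and 1.84 and 2.42 FPKM in the mutants and was not called (log2 fold change -1.21, adjusted p = 0.0567). The 95% intervals of Sox1, Sox2, Sox6 and Sox9 lay above those of every SoxC gene and of Sox5, and that of Sox3 lay below them. The exact permutation test of such a difference cannot go below p = 0.333.

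Within the SoxD group Sox6 rose while Sox5 was not called. Sox6 was 10.4 and 13.2 FPKM in wild type and 23.2 and 25.0 FPKM in the mutants (log2 fold change 1.01, SE 0.14, limma adjusted p = 0.0344). The ratio of Sox5 to Sox6 was 12.9 and 10.2 in wild type and 4.79 and 4.99 in the mutants. Of the summed FPKM of the 3 SoxD genes, Sox6 made up 7.1% and 8.84% in wild type and 16.9% and 16.5% in the mutants, while Sox5 still made up 81.1% and 82.3% in the mutants. The sum itself overlapped between genotypes, at 147 and 149 FPKM in wild type and 137 and 152 FPKM in the mutants. The summed FPKM of 12 GABAergic genes, a class of neuron that uses Sox6, moved with it, from 373 and 285 to 972 and 1050. That sum leans on Dlx1, at 68.9 and 53.2 FPKM in wild type and 388 and 449 FPKM in the mutants. Npy, at 160 and 96.5 FPKM in wild type and 95.4 and 90.6 FPKM in the mutants, was not called. The part of these neurons in the Sox6 values was not tested. Against Sox2, a gene of dividing progenitors, the ratio of Sox11 was 11.0 and 12.7 in wild type and 3.28 and 3.06 in the mutants. The pairs with Sox6 and Sox2 were chosen after their values were seen.

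**Figure D3:**
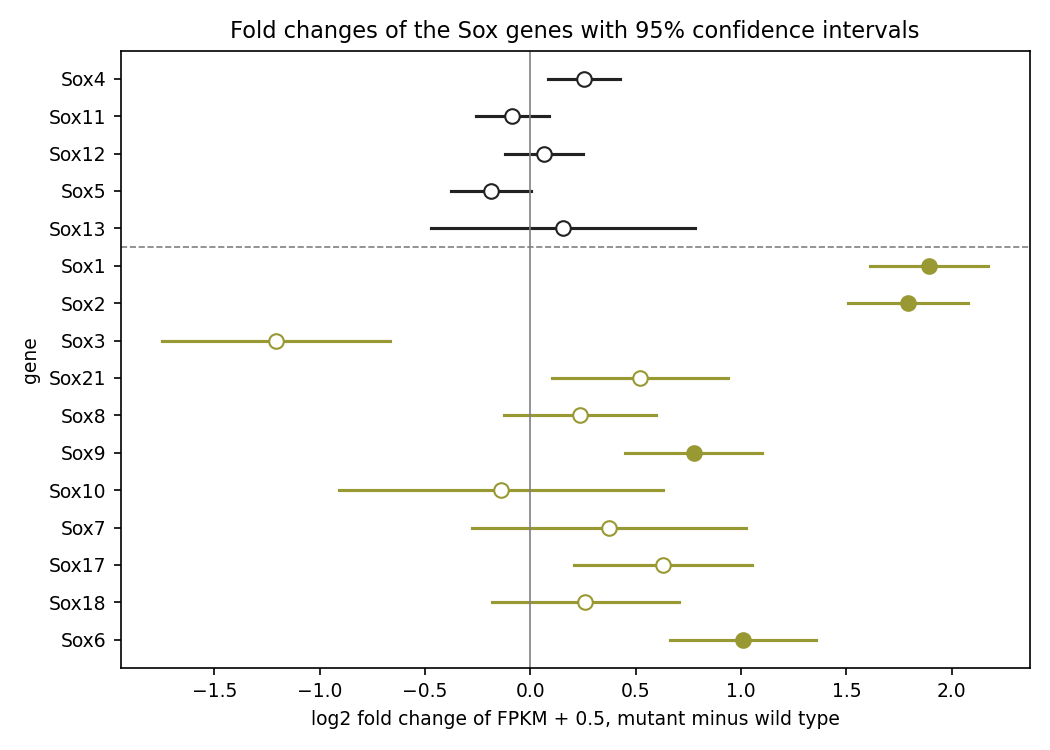
Log2 fold change of FPKM + 0.5, mutant minus wild type, with its 95% confidence interval (line), for the 5 members (above the dashed line) and 11 other tested Sox genes (below it); filled points had an adjusted p under 0.05. The members lie between -0.19 and 0.25, while Sox1 and Sox2 lie at 1.89 and 1.79.

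Of the listed factors that SoxC proteins work with, most of those tested were called. Of 6 partner genes, 5 were tested, and 3 fell (1.46% of all genes did) and 1 rose (2.02%), with a median log2 fold change of -0.80. The class III POU factors Pou3f2 and Pou3f3, which bind beside Sox proteins on neural enhancers, fell from 92.7 and 101 FPKM to 52.9 and 58.0 FPKM and from 116 and 125 FPKM to 83.7 and 82.2 FPKM (log2 fold changes -0.80 and -0.53, limma adjusted p = 0.0197 and 0.028). Pou3f4, a POU factor of ventral forebrain, rose from 5.98 and 4.85 FPKM to 23.8 and 28.5 FPKM (2.17, adjusted p = 0.00923). Neurog2, the proneural factor of cortical progenitors, had a log2 fold change of -3.88 and also fell (adjusted p = 0.0130). Pou3f1 was at 28.4 and 27.2 FPKM in wild type and 18.9 and 13.0 FPKM in the mutants and was not called (adjusted p = 0.0976). Neurog1 was under the filter.

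Genes reported as SoxC targets went both ways. Of 7 tested, 1 rose (2.02% of all genes did) and 1 fell (1.46%), with a median log2 fold change of 0.02. Tubb3, the neuronal tubulin gene, was 860 and 852 FPKM in wild type and 817 and 782 FPKM in the mutants (adjusted p = 0.391). Dcx, which codes for the microtubule protein doublecortin of migrating neurons, was 406 and 399 FPKM in wild type and 397 and 416 FPKM in the mutants, and its groups overlapped (log2 fold change 0.02, adjusted p = 0.903). Reln, the gene of the secreted glycoprotein reelin, rose from 47.1 FPKM in both wild types to 68.2 and 79.0 FPKM (0.63, adjusted p = 0.0346). Eomes, the factor of intermediate progenitors, fell from 50.0 and 57.4 FPKM to 13.8 and 8.64 FPKM (-2.24, adjusted p = 0.0204). Tead2, a Hippo pathway factor, was 26.8 and 24.5 FPKM in wild type and 34.7 and 40.1 FPKM in the mutants, and Prox1, a homeobox factor, was 2.35 and 1.38 against 6.34 and 5.35 FPKM. Neither was called (adjusted p = 0.0684 and 0.0584).

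Fezf2, on whose enhancer SoxC proteins and Sox5 meet, was the flattest of the corticofugal genes. It measured 45.6 and 48.3 FPKM in wild type and 50.3 and 44.2 FPKM in the mutants (log2 fold change 0.01, SE 0.09, limma adjusted p = 0.972), and the mutants lay outside the wild-type values on either side. Of 12 corticofugal and subplate genes, 11 were tested, and 3 fell (1.46% of all genes did) and 0 rose, with a median of -0.07. The genes that fell were Tbr1, a factor of early-born neurons (111 and 117 to 65.5 and 59.3 FPKM, log2 fold change -0.87, adjusted p = 0.0152), Tle4, a corepressor of corticothalamic neurons (-0.50, adjusted p = 0.0366), and Pcp4, a calmodulin regulator (-0.43, adjusted p = 0.0418). Foxp2, a factor of corticothalamic and striatal neurons, was 8.11 and 7.37 FPKM in wild type and 15.2 and 24.3 FPKM in the mutants and was not called (adjusted p = 0.062). Bcl11b, a target of Fezf2 that also marks striatal neurons, was 29.5 and 31.5 against 36.6 and 42.9 FPKM (adjusted p = 0.141). Cplx3 was under the filter.

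Of 14 tested pan-neuronal genes, 0 rose and 1 fell (1.46% of all genes fell), with a median log2 fold change of -0.13. The gene that fell was Rbfox3, which codes for NeuN, a splicing factor of mature neurons, from 24.5 FPKM in both wild types to 13.8 and 11.5 FPKM (-0.93, adjusted p = 0.0281). Elavl4, an RNA-binding protein gene of newborn neurons, was 52.2 and 55.1 FPKM in wild type and 66.2 and 74.5 FPKM in the mutants (adjusted p = 0.0861). Neuron classes moved apart beside this: of 7 glutamatergic genes 6 fell and 0 rose (median -1.18), among them Slc17a6, a vesicular glutamate transporter gene, from 18.1 and 22.0 FPKM to 4.96 and 3.92 FPKM. Of 12 GABAergic genes 9 rose (2.02% of all genes did) and 0 fell (median 1.82). Among those that rose was Gad1, a gene of GABA synthesis, from 13.8 and 14.9 FPKM to 61.5 and 72.5 FPKM. Which of these neurons held the Sox RNA cannot be read from whole tissue. Of 9 progenitor genes 3 rose (Sox2, Top2a and Mki67, the last 2 genes of dividing cells) and 0 fell, with a median of 0.17.

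**Figure D4:**
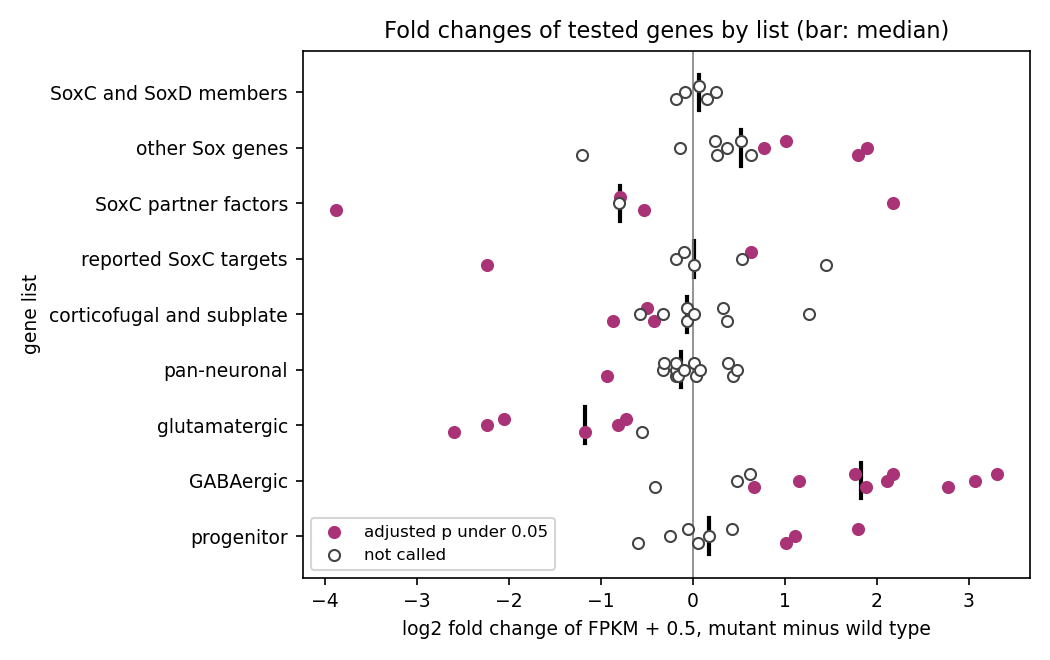
Log2 fold change of FPKM + 0.5, mutant minus wild type, of each tested gene in 9 lists, with filled points at an adjusted p under 0.05 and a bar at the list's median. The Sox members lie between -0.19 and 0.25, and medians run from -1.18 for the glutamatergic list to 1.82 for the GABAergic list.

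By GENCODE M21, exons of Sox1, Pou3f1, Map2, Tead2, Prox1, Reln, Eomes, Pcp4, Dlx1 and Top2a share bases with another annotated gene. Sox2 lies within the long noncoding gene Sox2ot. Strand use is not stated, so these values are uncertain. Marker lists of other cells had 0 called members, against 3.48% of all tested genes, for endothelium (6 genes tested), mural cells (5), meninges (5), microglia (6), oligodendrocyte precursors (4), choroid plexus (1) and red cells (5). All 6 endothelial and all 5 tested meningeal genes were nevertheless above 0, with median log2 fold changes of 0.43 and 1.79, and the part of these cells in the values of the Sox genes was not tested.

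The genes whose pattern over the 4 libraries was most like each member were found by the root mean square distance of log2(FPKM + 0.5), centred on each gene's mean, among 7457 named genes with a mean of at least 10 FPKM. For Sox4 they were Emsy (distance 0.0039) and Rbm39 (0.0078), with 226 genes within 0.05. For Sox11 they were Tm2d3 (0.0069) and Bet1l (0.0073), for Sox12 Mrpl13 (0.0056) and Gabarapl2 (0.0088), and for Sox5 Ube4b (0.0093) and Plaa (0.0115), with 551, 460 and 205 genes within 0.05. For Sox13 the nearest, Wdr91 and Slc37a3, lay farther off, at 0.0265 and 0.0313, and 6 genes lay within 0.05. Sox13 itself was below 10 FPKM, so no gene near its level was among the candidates. Its distances and count cannot be compared with those of the other members. Rbm39, for example, was 210 FPKM in each wild-type library and 241 and 265 FPKM in the mutants. With 4 libraries and so many genes this close, the pattern of a SoxC gene or of Sox5 was a common one.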

How the data were processed

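Total RNA of cortex was sequenced in 4 libraries. The authors deposited FPKM per library, group FPKM, the ratio (fold) of mutant to wild-type group FPKM and a p-value, per the file headers; TopHat2 2.0.9, Cufflinks 2.2.1 and edgeR are listed, without their roles, in the submitters' processing notes. Counts were not used here. Column totals were 579698 to 593256 FPKM. From the lowest genes, depth relative to wild-type library 1 was 0.782 for the other wild type and 0.866 and 1.19 for mutant libraries 1 and 2; absolute depth is unknown. The 15399 genes reaching 0.5 FPKM in 2 libraries were tested with limma 3.58.1 in R 4.3.3 (mean-variance trend, both groups, no covariate), on log2(FPKM + 0.5), which understates changes of low genes, and adjusted by Benjamini-Hochberg (threshold 0.05). Intervals are limma's 95% intervals, not adjusted for the number of genes. The script was tested on simulated data in which 200 genes of mixed level were changed. It recovered 0% of the 1.2-fold changes, 2% of the 1.5-fold, 24% of the 2-fold and 52% of the 4-fold changes. The lack of a call therefore does not show that a member was unchanged. Exact permutation tests over libraries used scipy 1.17.1. Named genes are all members, up to 4 of each list by smallest p, called Sox genes and the 2 genes likest each member; others were named after their values were seen. Members and lists were chosen with earlier results of these data known. Symbols were matched by Ensembl ID for 22599 of 22770 genes. Promoter sequences are RefSeq's (GRCm38.p6), and 5 of 5 members matched.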

Additional observations from a re-analysis of the deposited data

How the results depend on the processing

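Over 75 refits of single members under 15 alternatives (pseudocounts of 0.1 and 1, 2 other filters, no trend, 3 scalings, the replicate block, each library left out, and levels relative to the pan-neuronal or the progenitor sum), 0 were called. In 20 of them the setting cannot change a fold change, and of the other 55, 53 kept their sign. Scaling by median ratio or by totals without mitochondrially encoded genes moved all genes nearly alike. Quantile normalization did not: the log2 fold change of Sox4 went from 0.253 to 0.216 and that of Sox5 from -0.187 to -0.192. Fits without 1 library called so few genes of any kind that a lack of calls there says nothing about stability. The signs that turned were those of Sox11 relative to the pan-neuronal sum (0.0316) and of Sox13 without mutant library 1 (-0.0801). Sox4 ran from 0.18 to 0.37 (adjusted p = 0.0936 to 0.726), Sox11 from -0.16 to 0.03, Sox12 from 0.01 to 0.18, Sox5 from -0.27 to -0.07 and Sox13 from -0.08 to 0.39. The count of all genes called, 536, dropped to 61 when low genes were kept and to 54 without the trend, and 7 to 59 with 1 library left out, which leaves 1 library in a group that is assumed to vary like the other. With the replicate number as a block it was 374 and 0 members were called. Same-numbered libraries shared only a number (correlation of deviations 0.049). The cause of these changes was not tested. Whether named genes outside the set kept their calls under these alternatives was not examined, and calls near the threshold are the least certain. Low level limits Sox13 most: genes near its level differed between the wild types by a median of 0.26 on the log2 scale, against 0.07 near Sox4.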
